A study of Rattus norvegicus with 6 samples.

Results

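The genes described here are the folate transporters Slc46a1 and Slc19a1, the polyglutamate enzymes Fpgs and Ggh, and the one-carbon enzymes Shmt1, Shmt2, Mthfd1, Mthfd2 and Tyms, measured in the colonic epithelium of rats given melatonin or vehicle. The 9 genes were chosen by name, with earlier results of these data known. Their values are the summed FPKM (fragment counts divided by transcript length and library depth) of the transcripts that the RefSeq rat annotation assigns to each symbol. 8 of the 9 had a row, held by 9 of the 13647 transcripts in the table, and Shmt1 had none. All animals were adult male Wistar rats whose pineal gland, the source of the nightly melatonin rhythm, had been removed. 3 received melatonin (1 mg/kg, intraperitoneal; animals 4, 5 and 6) and 3 received vehicle (2.5% ethanol in PBS; animals 1, 2 and 3), both at the start of subjective night. The inner epithelial layer of the colon was collected 4 h after the injection and gave 1 RNA library per animal. The comparison asks which genes of this epithelium differ within hours of a single dose, when the pineal source of melatonin had been removed in both groups.

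Folates carry single carbon units between enzymes. Cells take up folate through carriers, lengthen it with a chain of glutamates that keeps it inside, and shorten that chain again before it can leave. Serine gives its carbon to tetrahydrofolate in the cytosol and in the mitochondrion, and the loaded folates feed the synthesis of thymidylate and purines. The epithelium of the colon renews itself from dividing crypt cells, which need both products, and it can absorb folate made by gut bacteria.

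Promoter windows from RefSeq (GRCr8, 250 bases before to 50 after the start site) were found for 7 of the 9 genes, with none for Ggh and Mthfd1. The windows are shown for Tyms, the member whose product is used for DNA replication, and for Mthfd2, the member that varied most among vehicle animals. Capitals mark the letters of 5 motifs, searched on both strands. They are the CCAAT box (spelled CCAAT), the GC box (spelled GGGCGG), a first form of the E2F element (spelled TTGGCGC), a second form of it (spelled TTCCCGC) and the E-box (spelled CACGTG).
Tyms, chr9:120776034-120776333, minus strand: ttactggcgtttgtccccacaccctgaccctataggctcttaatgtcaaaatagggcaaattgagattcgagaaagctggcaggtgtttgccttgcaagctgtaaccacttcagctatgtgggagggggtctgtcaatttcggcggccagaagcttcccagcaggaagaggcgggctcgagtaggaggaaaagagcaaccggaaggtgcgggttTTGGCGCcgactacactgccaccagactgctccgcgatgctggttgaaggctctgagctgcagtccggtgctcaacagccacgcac
Mthfd2, chr4:117380301-117380600, minus strand: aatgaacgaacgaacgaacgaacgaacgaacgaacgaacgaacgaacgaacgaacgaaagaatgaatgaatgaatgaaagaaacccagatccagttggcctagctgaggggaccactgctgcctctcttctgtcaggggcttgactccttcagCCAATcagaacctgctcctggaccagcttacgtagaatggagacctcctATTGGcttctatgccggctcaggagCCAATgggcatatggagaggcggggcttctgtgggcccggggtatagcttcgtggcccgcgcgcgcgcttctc
The Tyms window held 1 match to the first E2F form, which 2.26% of all 33469 promoter windows hold. The Mthfd2 window held 3 CCAAT matches, and 37.5% of all windows hold at least 1. Among the 7 members with a window, CCAAT was found in 3, the GC box in 4 (33.1% of all windows), the first E2F form in 2, the second in 0 (4.21% of all windows) and the E-box in 1 (6.42% of all windows). These counts include Shmt1, which had no FPKM row. Its window held CCAAT, the GC box, the first E2F form and the only E-box.

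The spacing of low FPKM values puts the depth at 3270000 to 3580000 fragments in each library, and the members rested on 18 to 186 estimated reads per gene and library. Their mean levels over the 6 animals lay between 5.29 and 17.6 FPKM, against a median of 16.3 FPKM for all tested genes. The labelled tissue was matched by high levels of colonocyte and goblet cell genes: Guca2a stood at 4294 ± 466 FPKM after melatonin and 4891 ± 652 after vehicle, and Zg16 at 2256 ± 802 and 2338 ± 501 (mean ± SD, n = 3 animals each, as for every mean below). The 8 listed genes of smooth muscle and fibroblasts summed to 11.1 to 17.0 FPKM after melatonin and 12.4 to 15.3 after vehicle. Melatonin animals 5 and 6 stood apart from animal 4 in interferon-stimulated genes, whose median difference from the vehicle mean was 1.19 and 1.23 on the log2 scale in animals 5 and 6 and -0.10 in animal 4.

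No member passed the test. In a limma fit of log2(FPKM + 1) across 10137 features (genes, and transcripts without a gene name), 0 of the 8 members were called higher and 0 lower after melatonin at an adjusted p under 0.05, and over all features 0% were called in either direction. The smallest adjusted p among the members was 0.972. At an unadjusted p under 0.05 there was 1 member, Ggh, against 3.75% of all features. The lowest melatonin animal exceeded the highest vehicle animal for 1 of 8 members (12.5%), again Ggh, against 4.04% of all features, and 0 members lay entirely below, against 4.33%. With 1 gene in 8, these shares describe Ggh and do not set the members apart from other genes. The members were also chosen with earlier results of these data known, so their shares are not those of an independent list. With limma voom on the estimated reads 0 features were called and 347 had an unadjusted p under 0.05. Each animal is its own sample, so the p-values measure the spread between animals.

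**Figure D1:**
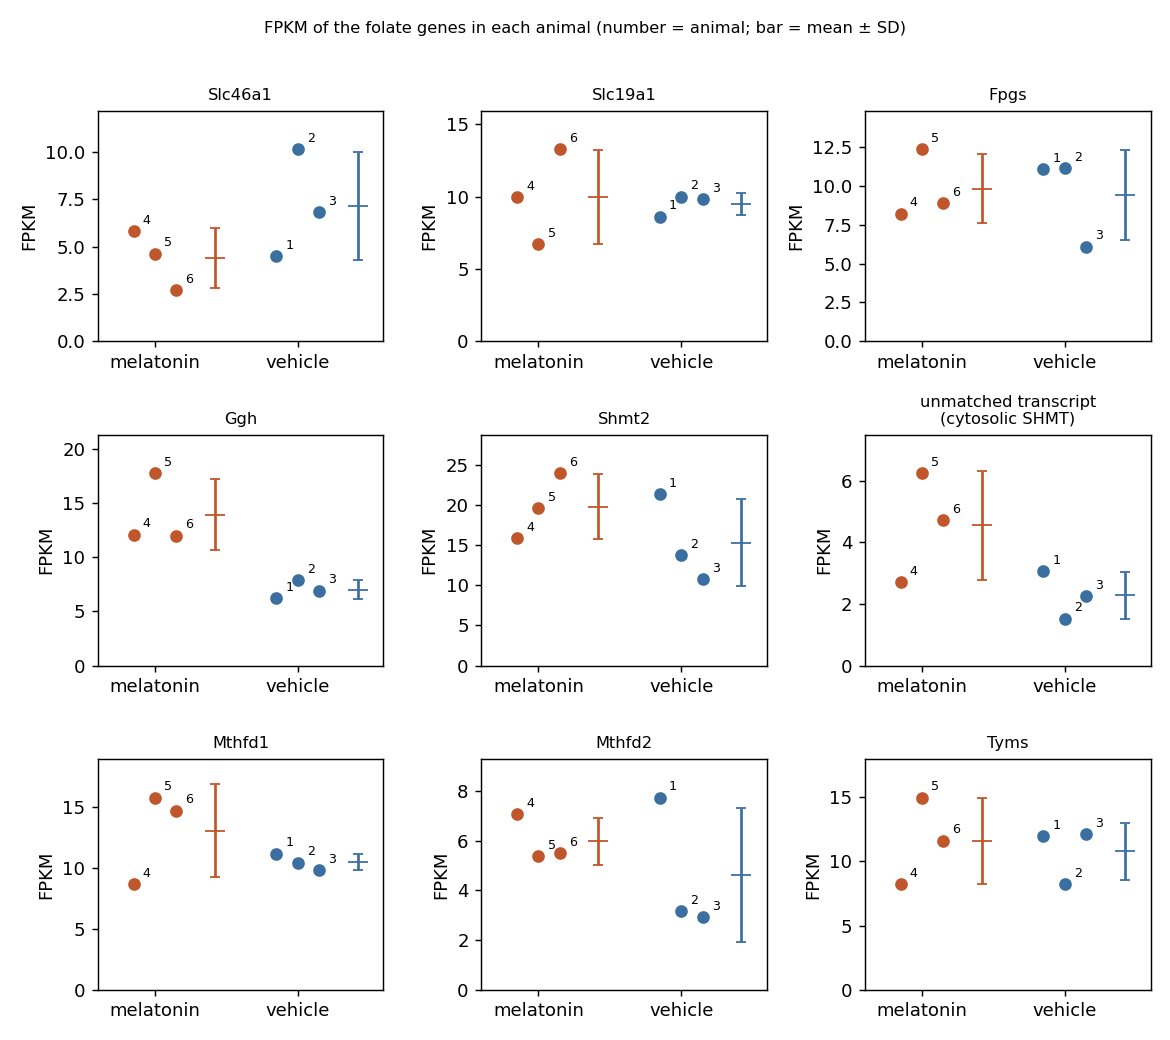
FPKM (y axis, from 0, own scale per panel) of the 8 measured members and of an unmatched transcript annotated as cytosolic serine hydroxymethyltransferase, with 1 numbered point per animal and the group mean ± SD as a bar. Only in the Ggh panel do the 3 melatonin animals (12.00 to 17.74) all lie above the 3 vehicle animals (6.21 to 7.91).

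The folate carriers came first in the pathway. Slc46a1, the proton-coupled folate transporter that takes up folate at an acidic surface, was listed at 5.84, 4.63 and 2.69 FPKM in melatonin animals 4, 5 and 6, against 4.50, 10.14 and 6.82 in vehicle animals 1, 2 and 3. The groups overlapped, with vehicle animal 1 inside the melatonin range and vehicle animal 2 highest of all. Its mean was 4.39 ± 1.59 after melatonin and 7.15 ± 2.83 after vehicle, a log2 change of -0.58 ± 0.32 (SE; 95% interval -1.32 to 0.15, limma adjusted p = 0.972). It was the 1 member of 8 with a negative change. The change was -0.33 without vehicle animal 2 and likewise without melatonin animal 6, and -0.84 without vehicle animal 1.

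Slc19a1, the reduced folate carrier, was listed at 9.98, 6.75 and 13.28 FPKM after melatonin, against 8.63, 10.01 and 9.84 after vehicle. The vehicle animals lay close together and inside the range of the melatonin animals (log2 change 0.03 ± 0.23, 95% interval -0.50 to 0.55, limma adjusted p = 0.993). This gene was the only member with more than 1 transcript in the table. The 2436-base transcript was listed at 4.31, 2.09 and 6.48 after melatonin, against 2.10, 3.40 and 0 after vehicle, and the 2303-base transcript at 5.67, 4.66 and 6.80 against 6.53, 6.61 and 9.84. The 2436-base transcript thus made up 31.0% to 48.8% of the gene's FPKM in melatonin animals and 0% to 34.0% in vehicle animals, and these ranges overlap. How reads common to both transcripts were divided is not given in the sources used here, so the split between them is uncertain while their sum is less so. Taking the more abundant transcript alone turned the sign of the change, to -0.36.

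Within the cell, Fpgs (folylpolyglutamate synthase) adds the glutamates that retain folate, and Ggh (gamma-glutamyl hydrolase) removes them. Fpgs was listed at 8.20, 12.33 and 8.86 FPKM after melatonin, against 11.07, 11.12 and 6.09 after vehicle. Its lowest value was in vehicle animal 3 and its highest in melatonin animal 5, so the groups overlapped (log2 change 0.07 ± 0.25, 95% interval -0.51 to 0.65, limma adjusted p = 0.983).

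Ggh was listed at 12.10, 17.74 and 12.00 FPKM after melatonin, against 6.21, 7.91 and 6.91 after vehicle. The groups did not overlap, and the gap between the lowest melatonin animal and the highest vehicle animal was wider than the whole range of the vehicle animals. The estimated reads behind these values numbered 57 to 86 per melatonin library and 30 to 35 per vehicle library. The mean was 13.9 ± 3.29 after melatonin and 7.01 ± 0.854 after vehicle, 1.99 times as high, with a log2 change of 0.88 ± 0.19 (95% interval 0.45 to 1.32, not adjusted for the number of genes). Its unadjusted limma p of 0.00159 ranked 12 among 10137 features and did not pass adjustment (limma adjusted p = 0.972). In the authors' deposited table its log2 ratio was 0.99 and its score, headed as a probability, 0.670. Over the 13 alternatives the change lay between 0.71 and 0.97, with limma adjusted p-values between 0.273 and 1. In melatonin animal 4, where interferon-stimulated genes stood at the vehicle level, Ggh was at 12.10 FPKM. It was at 17.74 in animal 5 and 12.00 in animal 6, where those genes were higher. The part of the interferon response in the values of Ggh was not tested.

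The ratio of Ggh to Fpgs, set up after the values were seen, was 1.48, 1.44 and 1.35 in melatonin animals 4, 5 and 6, against 0.561, 0.711 and 1.13 in vehicle animals. All 3 melatonin ratios lay above the vehicle ratios, and the vehicle ratios spread more widely. On the log2 scale the difference was 0.81, with an exact two-sided permutation p of 0.1, the smallest that 3 against 3 allows, and an adjusted p of 0.4 over the 4 ratios computed (exact permutation). Because Fpgs changed little (log2 change 0.07), this ratio largely repeats the values of Ggh. Neither p accounts for how the ratio was chosen. The other 3 ratios, Mthfd2 to Mthfd1, Shmt2 to the cytosolic transcript described next, and Slc46a1 to Slc19a1, had exact permutation p-values of 0.5, 0.3 and 0.5 and overlapped between the groups.

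Serine hydroxymethyltransferases pass the carbon of serine to tetrahydrofolate. Shmt2, the mitochondrial enzyme, was listed at 15.87, 19.65 and 23.94 FPKM after melatonin, against 21.38, 13.75 and 10.81 after vehicle. Vehicle animal 1 lay between melatonin animals 5 and 6, while the other two vehicle animals lay below all 3 melatonin animals. The log2 change was 0.39 ± 0.25 (95% interval -0.19 to 0.96, limma adjusted p = 0.972). It depended on single animals, with 0.25 without melatonin animal 6, 0.18 without vehicle animal 3 and 0.64 without vehicle animal 1.

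Shmt1, the cytosolic enzyme, had no row under its symbol. One of the 764 transcripts that the annotation did not match carries the annotation rat cytosolic serine hydroxymethyltransferase in the authors' file, and it is described here apart from the members. It was listed at 2.71, 6.23 and 4.72 FPKM after melatonin, against 3.06, 1.52 and 2.25 after vehicle. Animals 5 and 6 were the highest, and melatonin animal 4 lay inside the vehicle range. The mean was 4.55 ± 1.77 after melatonin and 2.28 ± 0.770 after vehicle, resting on 19 to 45 and 10 to 22 estimated reads per library. The log2 change was 0.74 ± 0.31 (95% interval 0.03 to 1.44, limma adjusted p = 0.972). It was 0.52 without melatonin animal 5, 0.56 without vehicle animal 2 and 1.00 without melatonin animal 4, and its unadjusted limma p was under 0.05 in 7 of the 13 alternatives. Shmt2 exceeded this transcript in every animal, by 3.15 to 5.86 times after melatonin and 4.80 to 9.05 times after vehicle, on the FPKM scale.

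Mthfd1 encodes the cytosolic enzyme that interconverts formyl-, methenyl- and methylene-tetrahydrofolate. It was listed at 8.69, 15.79 and 14.73 FPKM after melatonin, against 11.19, 10.45 and 9.86 after vehicle. Melatonin animals 5 and 6 lay above and animal 4 below the narrow vehicle range (log2 change 0.25 ± 0.22, 95% interval -0.25 to 0.75, limma adjusted p = 0.972). The change was 0.50 without animal 4, 0.10 without animal 5 and 0.15 without animal 6. The coefficient of variation was 29.3% after melatonin and 6.35% after vehicle, where the estimated reads alone give 8.08% and 9.14%.

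Mthfd2, a mitochondrial dehydrogenase and cyclohydrolase known for high levels in embryonic and dividing cells, was listed at 7.07, 5.36 and 5.51 FPKM after melatonin, against 7.73, 3.16 and 2.93 after vehicle. Vehicle animal 1 was the highest of all 6, and the other two vehicle animals were the lowest. The coefficient of variation was 15.8% after melatonin and 58.8% after vehicle, where counting alone gives 15.3% and 17.5%. The log2 change was 0.41 ± 0.32 (95% interval -0.32 to 1.14, limma adjusted p = 0.972). It was 0.78 without vehicle animal 1, 0.24 without vehicle animal 2 and 0.20 without vehicle animal 3. Shmt2 was also highest among vehicle animals in animal 1.

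Tyms, thymidylate synthase, which methylates deoxyuridylate with a carbon from folate, was listed at 8.25, 14.97 and 11.61 FPKM after melatonin, against 11.99, 8.20 and 12.12 after vehicle. Melatonin animal 5 was the highest, and melatonin animal 4 and vehicle animal 2 shared the low end. The log2 change was 0.08 ± 0.24 (95% interval -0.46 to 0.63, limma adjusted p = 0.982), and changes in either direction lie within that interval.

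**Figure D2:**
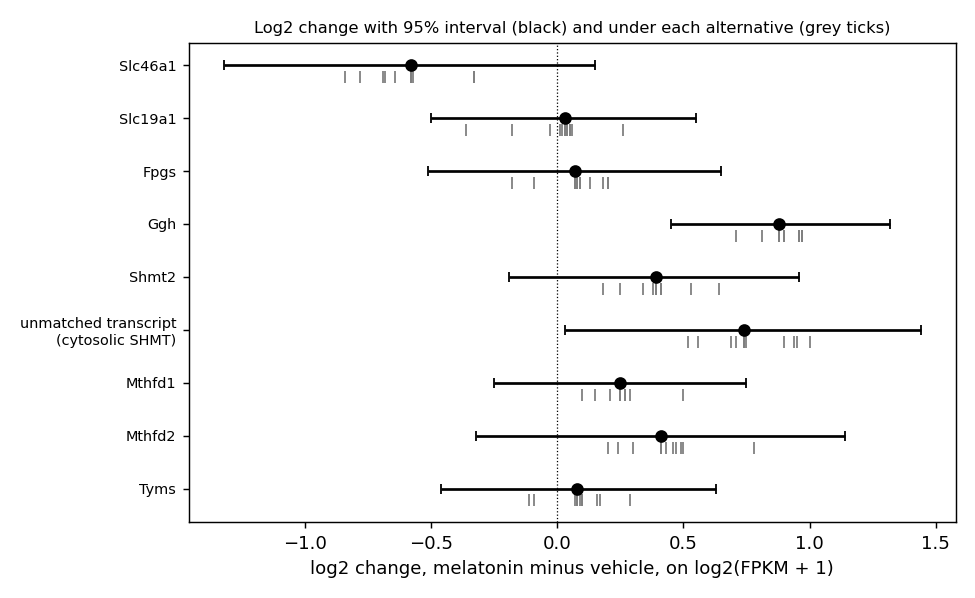
Log2 change on log2(FPKM + 1), melatonin minus vehicle (x axis), for each member and the unmatched cytosolic transcript, with the unadjusted 95% limma interval in black and the values under the 13 alternatives as grey ticks. The interval of Ggh (0.45 to 1.32) and that of the unmatched transcript (0.03 to 1.44) lie above 0, and the other 7 include 0. The changes of Fpgs, Slc19a1 and Tyms have alternatives on both sides of 0.

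Ordered by mean FPKM, the members after melatonin ran Shmt2 (19.8), Ggh (13.9), Mthfd1 (13.1), Tyms (11.6), Slc19a1 (10.0), Fpgs (9.80), Mthfd2 (5.98) and Slc46a1 (4.39). After vehicle they ran Shmt2 (15.3), Tyms (10.8), Mthfd1 (10.5), Slc19a1 (9.49), Fpgs (9.43), Slc46a1 (7.15), Ggh (7.01) and Mthfd2 (4.61). Ggh thus held the second place after melatonin and the seventh after vehicle, while Shmt2 led in both groups. After melatonin the neighbours from Ggh to Fpgs differed by less than the larger SD of the pair. After vehicle all neighbours did so, except Mthfd1 and Slc19a1.

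The 8 members together had a median log2 change of 0.17, with 7 positive and 1 negative, where all features had a median of -0.02 and 4659 of 10137 positive. When each animal was left out, the median of the members lay between 0.14 (without melatonin animal 6) and 0.29 (without melatonin animal 4). Of the 7 positive changes, those of Slc19a1 (0.03), Fpgs (0.07) and Tyms (0.08) turned negative under some alternatives. By animal, their median difference from the vehicle mean was -0.03, 0.39 and 0.38 in melatonin animals 4, 5 and 6, against 0.12, 0.03 and -0.05 in vehicle animals. Animal 4 thus lay at the vehicle level over the members as a group and animals 5 and 6 above it, whereas Ggh in animal 4 was level with animal 6.

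**Figure D3:**
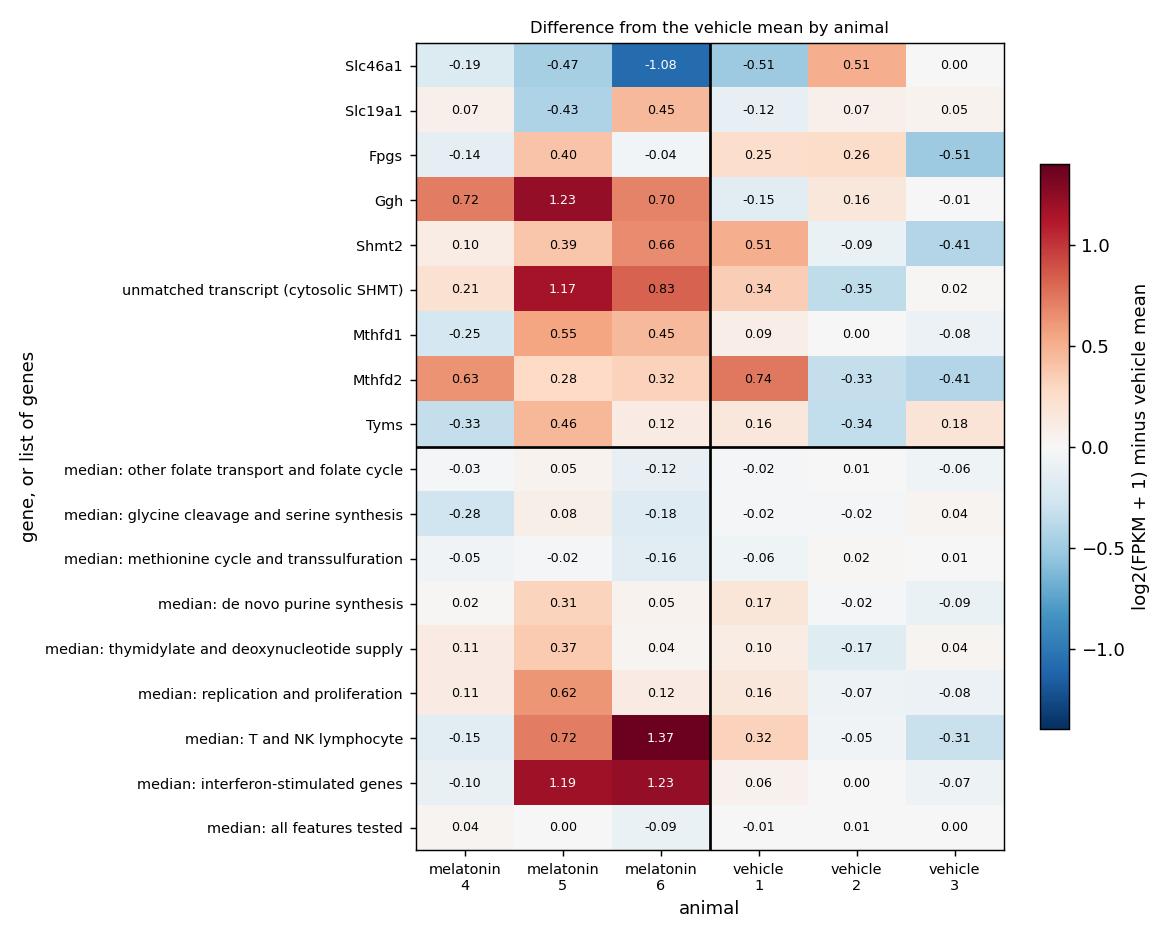
Difference of log2(FPKM + 1) from the vehicle mean (colour and printed value) for each member and, below the line, the median of each gene list, by animal (columns, melatonin left). Ggh is above the vehicle mean in all 3 melatonin animals (0.72, 1.23 and 0.70). The median of interferon-stimulated genes is above it in animals 5 and 6 and at -0.10 in animal 4.

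Around the members, 18 other genes of folate transport and the folate cycle were listed, of which 12 were tested, with 0 called, 6 positive, 6 negative and a median log2 change of -0.02. The folate exporter Abcc3 was listed at 87.85, 83.11 and 81.04 FPKM after melatonin, against 84.05, 91.03 and 95.17 after vehicle (log2 change -0.10), and the exporter Abcg2 at 36.83, 41.89 and 35.87 against 35.01, 47.45 and 31.83 (log2 change 0.02). Both overlapped between the groups. The smallest p in this list belonged to Mtfmt, the mitochondrial enzyme that formylates the initiator methionyl-tRNA, at 7.75 ± 1.81 after melatonin and 10.9 ± 2.70 after vehicle (log2 change -0.44 ± 0.23, limma adjusted p = 0.972). Mthfd1l, the mitochondrial formyl-tetrahydrofolate synthetase, stood at 2.73 ± 1.05 and 1.81 ± 0.451, and Aldh1l1, which oxidises formyl-tetrahydrofolate, at 27.8 ± 7.67 and 31.1 ± 4.74.

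Of 7 genes of glycine cleavage and serine synthesis, the suppliers of one-carbon units, 5 were tested, with 0 called, 1 positive, 4 negative and a median log2 change of -0.08. Amt, the aminomethyltransferase of glycine cleavage, stood at 2.41 ± 0.464 FPKM after melatonin and 3.84 ± 1.05 after vehicle (log2 change -0.49 ± 0.24, limma adjusted p = 0.972), and Phgdh, the first enzyme of serine synthesis, at 20.0 ± 4.23 and 18.1 ± 2.88. Psph, its last enzyme, stood at 4.72 ± 1.51 and 5.35 ± 0.542, and Dld, a subunit that glycine cleavage has in common with other dehydrogenases, at 43.0 ± 3.67 and 44.4 ± 1.18. None of these differences passed the test.

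Among the users of one-carbon units, 14 genes of thymidylate and deoxynucleotide supply were tested, with 0 called, 11 positive, 3 negative and a median log2 change of 0.17, which was 0.06 without melatonin animal 5 and 0.27 without melatonin animal 6. Tk1, the salvage thymidine kinase, was listed at 17.75, 40.11 and 31.19 FPKM after melatonin, against 26.48, 13.00 and 17.00 after vehicle (log2 change 0.61 ± 0.32, limma adjusted p = 0.972). Rrm2, a subunit of ribonucleotide reductase, stood at 23.9 ± 8.07 and 16.7 ± 5.99, Dctd, deoxycytidylate deaminase, at 4.39 ± 1.37 and 2.12 ± 1.51, and Cad, of pyrimidine synthesis, at 16.6 ± 1.13 and 14.2 ± 0.743. Of 13 listed genes of purine synthesis 11 were tested, with 0 called, 8 positive, 3 negative and a median of 0.18, which was 0.05 without melatonin animal 5 and 0.09 without vehicle animal 3. Gart, which uses formyl-tetrahydrofolate, was listed at 7.14, 8.43 and 6.84 against 5.72, 5.97 and 5.79, without overlap (log2 change 0.31 ± 0.16, limma adjusted p = 0.972). Atic, the other folate-using enzyme of that route, stood at 17.2 ± 1.55 and 14.5 ± 1.90, Paics at 23.2 ± 4.11 and 18.9 ± 3.42, and Impdh1, which leads to guanine nucleotides, at 21.6 ± 6.73 and 16.0 ± 2.55. In both lists animal 5 had the highest median difference from the vehicle mean, 0.37 and 0.31.

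In the methionine cycle and transsulfuration, where methyl groups from folate are used, 10 of 14 listed genes were tested, with 0 called, 4 positive, 6 negative and a median log2 change of -0.08. Mat2a, which makes S-adenosylmethionine, was listed at 174.16, 159.14 and 115.80 FPKM after melatonin, against 172.69, 198.90 and 205.83 after vehicle, with overlap through animal 4 and vehicle animal 1 (log2 change -0.38 ± 0.16, limma adjusted p = 0.972). Cbs, the first enzyme of transsulfuration, stood at 11.4 ± 2.93 and 15.0 ± 1.74. Ahcyl1, a relative of the homocysteine-forming hydrolase, stood at 44.4 ± 4.65 and 49.6 ± 0.475, without overlap. Ahcyl2, another relative, stood at 280 ± 69.3 and 341 ± 14.6. Of the 10 tested genes, 2 lay entirely lower after melatonin, against 4.33% of all features, and 1 entirely higher, against 4.04%. The hydrolase Ahcy itself was listed at 113.11, 109.89 and 95.47 against 101.65, 107.05 and 110.41 (log2 change -0.01).

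**Figure D4:**
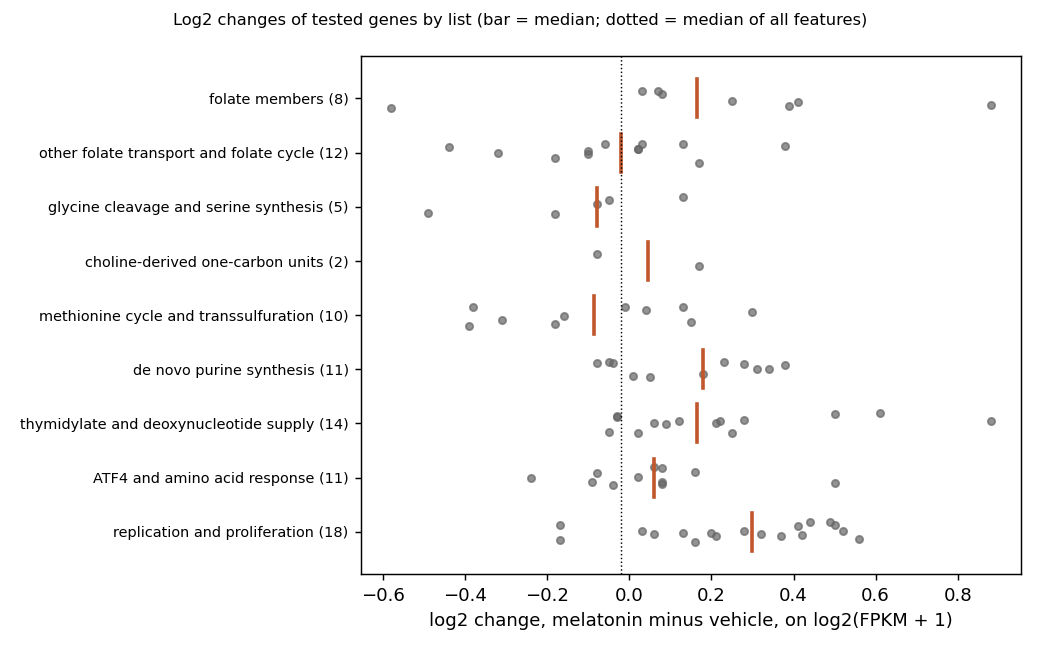
Log2 change on log2(FPKM + 1), melatonin minus vehicle (x axis), of every tested gene (points) in each pathway list (rows, number tested in brackets), with the list median as a bar and the median of all features, -0.02, as a dotted line. The medians of these lists run from -0.08 for glycine cleavage and for the methionine cycle to 0.30 for replication, and Ggh is the rightmost point of the members at 0.88.

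Replication and proliferation genes were set beside the members because thymidylate and purines are used in S phase. 18 of 21 were tested, with 0 called, 16 positive, 2 negative and a median log2 change of 0.30, which was 0.17 without melatonin animal 5. For 5 of the 18 the lowest melatonin animal exceeded the highest vehicle animal, against 4.04% of all features. The list's median difference from the vehicle mean was 0.11, 0.62 and 0.12 in melatonin animals 4, 5 and 6, against 0.16, -0.07 and -0.08 in vehicle animals, so animal 4 and animal 6 lay below vehicle animal 1. Mcm4, a subunit of the replicative helicase, was listed at 16.56, 22.66 and 17.57 against 13.87, 12.37 and 11.03 (log2 change 0.56 ± 0.16, limma adjusted p = 0.972). Mcm3 stood at 12.9 ± 0.814 after melatonin and 8.96 ± 1.33 after vehicle, Mcm6 at 21.9 ± 2.23 and 16.0 ± 2.48, and the origin-loading factor Cdc6 at 6.84 ± 1.01 and 4.49 ± 0.811. At an unadjusted limma p under 0.05 there were 4 genes in this list, 1 in the methionine cycle (Mat2a) and 0 in the lists of folate transport and cycle, glycine cleavage, purine synthesis and deoxynucleotide supply, against 3.75% of all features. In a bulk sample, more dividing cells and more RNA per cell cannot be told apart, and the part of these genes in the values of Ggh was not tested.

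Among 7650 other named genes with a mean of at least 5 FPKM, the 3 nearest to Ggh in pattern over the 6 animals were Tmem68, Mitd1 and Mcm4, with mean absolute differences of 0.141, 0.148 and 0.160 on the log2 scale. Tmem68 was listed at 6.54, 10.27 and 6.26 FPKM after melatonin, against 4.25, 4.52 and 4.84 after vehicle, and Mitd1 at 13.70, 15.24 and 13.34 against 8.50, 8.75 and 9.33. Both were highest in animal 5 and had no overlap between the groups, a likeness to Ggh that follows from how they were picked. Nearest to Tyms were Cyp20a1, Acy1 and Ccdc59, with mean absolute differences of 0.073, 0.073 and 0.079. In each, animal 5 was the highest and the groups overlapped, which likewise follows from how they were picked.

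Markers of T and NK lymphocytes, which sit within the epithelium, had a median difference from the vehicle mean of -0.15, 0.72 and 1.37 in melatonin animals 4, 5 and 6, against 0.32, -0.05 and -0.31 in vehicle animals. The 9 measured markers summed to 7.93, 18.6 and 31.5 FPKM after melatonin, against 15.2, 12.9 and 4.56 after vehicle, and 5 of the 9 were at 0 in at least 1 library. The median log2 change of the 7 tested was 0.40, but 1.24 with a pseudocount of 0.1 and 1.00 with voom. Animal 4, with the lowest sum of the melatonin animals, had 12.10 FPKM of Ggh, and animal 6, with the highest, had 12.00. The 4 measured markers of B and plasma cells summed to 166, 632 and 86.2 FPKM, against 165, 77.1 and 61.0, nearly all of it Cd74. The 7 markers of macrophages and dendritic cells summed to 121 to 158 FPKM after melatonin and 109 to 173 after vehicle, most of it Cd14. Of the 6 of them tested, 3 had a positive and 3 a negative change. The 5 markers of endothelium summed to 2.63 to 4.91 FPKM after melatonin and 2.26 to 4.24 after vehicle. The part of these cells in the values of the members was not tested.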

How the data were processed

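RNA was polyadenylated, primed with random hexamers and sequenced on a HiSeq 4000, with RNA integrity numbers of 9.0 to 9.7, per the labels' protocols. No strand marking is described there. The deposited table gives FPKM per RefSeq transcript and animal, per the file headers, rounded to 2 decimals. RSEM, Bowtie2, BWA 0.7.10-r789 and the rat build rn6 appear in the submitters' processing notes, with no role given. The authors' deposited log2 ratio of group means and their score, whose tool is not stated, were only quoted.

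Transcripts were matched by accession to RefSeq symbols (GRCr8, names only), 12883 of 13647, and summed per gene, giving 13104 genes and unmatched transcripts. Those with a mean of at least 1 FPKM (10137) entered a limma fit (version 3.58.1, R 4.3.3, mean trend, two-sided) on log2(FPKM + 1), which understates the change of low genes, with Benjamini-Hochberg adjustment. This test had been planned for FPKM and was checked on simulated data. Depth was estimated with 35 bases taken off each length: 90.6% to 93.2% of the low values used lay within 0.1 of a whole read. This is an estimate, and counting errors from it cover counting only. The alternatives were another pseudocount, 2 filters, 2 scalings, voom on estimated reads, the highest transcript per gene and leaving out each animal.

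The members and lists were chosen with earlier results of these data known, and the interferon list after the others. Named genes are all members, the 4 with the smallest p of each pathway list, the 2 highest of each marker list (given in part as sums) and the 3 nearest in pattern to Ggh and Tyms. Abcc3, Abcg2 and Ahcy were named for their roles, and 1 other gene is not reported here.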

Additional observations from a re-analysis of the deposited data

How the results depend on the processing

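Under all 13 alternatives 0 members passed the threshold (limma adjusted p-values from 0.273 to 1), and Ggh, Slc46a1, Shmt2, Mthfd1, Mthfd2 and the unmatched cytosolic transcript kept their direction. When each animal was left out, Slc46a1 lay between -0.84 and -0.33, Shmt2 between 0.18 and 0.64, Mthfd1 between 0.10 and 0.50, Mthfd2 between 0.20 and 0.78 and the unmatched transcript between 0.52 and 1.00. The change of Fpgs lay between -0.18 and 0.20 when each animal was left out, and was -0.09 without melatonin animal 5 and -0.18 without vehicle animal 3. That of Tyms lay between -0.11 and 0.29, and was -0.11 without melatonin animal 5 and -0.09 without vehicle animal 2. That of Slc19a1 lay between -0.18 and 0.26, with -0.18 without melatonin animal 6 and -0.03 without vehicle animal 1, and was -0.36 with the highest transcript, an alternative that leaves out the transcript with the higher mean after melatonin. Over all features, limma called 0 higher and 0 lower, but 1 higher with the highest transcript per gene, 1 lower with no filter, and 0 to 4 higher and 0 to 1 lower when each animal was left out (4 higher without melatonin animal 4, 3 higher without vehicle animal 1, 1 lower without vehicle animal 2). The cause was not tested. Of 247 recomputed list medians, 244 moved by less than the spread between animals. The other 3 were T and NK lymphocytes, at 1.24 with a pseudocount of 0.1 and 1.00 with voom against 0.40, and macrophages and dendritic cells, at 0.31 without melatonin animal 6 against 0.08. With each animal left out, the median of other folate genes lay between -0.08 and 0.04, of glycine cleavage between -0.12 and -0.01, of the methionine cycle between -0.13 and -0.03, of choline-derived units between -0.02 and 0.10, and of the ATF4 response between 0.01 and 0.09. No paired analysis was possible because the melatonin and vehicle animals have no number in common. The members had 18 to 186 estimated reads per library. At the mean reads of each group, counting alone gives coefficients of variation of 8.08% to 18.6%. Those measured between animals ran from 6.35% (Mthfd1, vehicle) to 58.8% (Mthfd2, vehicle). With this depth and spread in 3 animals per group, not only small changes went undetected. Ggh, at 1.99 times the vehicle mean, did not pass, and the smallest limma adjusted p over all features was 0.182. A member that did not pass is therefore not shown to be unchanged.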

Other observations

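Genes of the ATF4 amino acid response, a program that in mammalian cells includes Mthfd2, Shmt2 and serine synthesis among its targets, were measured beside the members. 11 of 13 were tested, with 0 called by limma at an adjusted p under 0.05, 0 at an unadjusted p under 0.05, 7 positive and 4 negative, and a median log2 change of 0.06. Atf4 itself was listed at 258.51, 269.37 and 264.58 FPKM after melatonin, against 248.73, 254.21 and 246.09 after vehicle, without overlap (log2 change 0.08 ± 0.08, limma adjusted p = 0.972). Asns, asparagine synthetase, was listed at 6.29, 13.05 and 16.98 against 10.04, 7.45 and 5.92, so that, as for Shmt2, animal 6 was the highest and vehicle animal 1 the highest of its group. Sesn2 stood at 17.9 ± 4.54 and 21.1 ± 3.70 and Slc3a2, a subunit of amino acid exchangers, at 31.5 ± 6.53 and 29.4 ± 2.12. The list's median difference from the vehicle mean in vehicle animal 1, where Mthfd2 was highest, was -0.01. The part of the ATF4 response in the values of Mthfd2 and Shmt2 was not tested.

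Of 7 genes that release one-carbon units from choline, 2 were tested, with 0 called by limma and none at an unadjusted p under 0.05. Aldh7a1 stood at 12.8 ± 1.19 FPKM after melatonin and 11.3 ± 1.17 after vehicle, and Chdh, choline dehydrogenase, at 6.93 ± 0.667 and 7.47 ± 1.58.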
